A study of Homo sapiens with 12 samples.

Results

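Expression of the genes of drug and steroid metabolism was followed in sorted gastric cancer cells: the cytochrome P450 genes (CYP), the UDP-glycosyltransferase genes (UGT), the cytosolic and kappa glutathione S-transferase genes (GST), the sulfotransferase genes (SULT) and arylacetamide deacetylase (AADAC). The members were chosen by symbol, with CYP51A1 left out. This gave 114 of the 34595 genes with a value, of which 57 are CYP, 22 UGT, 21 GST and 13 SULT genes, together with AADAC. The study sorted each of 3 established human gastric cancer cell lines, KATO-III, SNU-216 and SNU-601, by flow cytometry into a CD133+ fraction, the brightest 10% of the cells, and a CD133- fraction, the dimmest 6%. No treatment or genetic change separated the fractions, and CD133 is the surface protein encoded by PROM1. Each of these 6 populations was hybridized on 2 Illumina HT-12 v3 BeadChip arrays, so 12 arrays carry every value given here. Each tumor is represented by 1 line, and nothing in the sources used here says that the 2 arrays of a population came from separate sorts. P-values within a line, between lines and for the interaction thus measure only the spread between these arrays, which may be technical. Those over all lines count each array as separate, and their spread also takes in how far the change between fractions differed between lines.

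Enzymes of the CYP1, CYP2 and CYP3 families add oxygen to drugs, carcinogens and steroids in the endoplasmic reticulum, and those of the CYP4 family hydroxylate the ends of fatty acid chains. UGT enzymes transfer a sugar, most often glucuronic acid, SULT enzymes a sulfate group and GST enzymes glutathione, and each transfer makes a compound more soluble and easier to export. Many of these genes are known from liver and gut epithelium, where the aryl hydrocarbon receptor AHR, the pregnane X receptor NR1I2, the hepatocyte nuclear factor HNF4A and the oxidative stress factor NFE2L2 regulate some of them.

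The values are fluorescence intensities per gene on a linear scale, quantile-normalized and with a background subtracted, so values near 0 and below are common. The lowest 1% of all values lie more than 32.7 below 0, and the same distance above 0 served as a floor that stands for background. Genes exceeding this floor on 2 or more arrays were tested. That held for 59 of the 114 members (51.8%), as for 20147 of all 34595 genes (58.2%). By family, 27 of 57 CYP, 9 of 22 UGT, 14 of 21 GST and 8 of 13 SULT genes were tested, and so was AADAC. Another 46 members were above the floor on no array and 9 on 1 array. Those on no array include the main liver enzymes CYP3A4, CYP2A6, CYP2B6 and CYP2C19, the bile acid enzymes CYP7A1, CYP7B1 and CYP8B1, the steroid hormone enzymes CYP11B1, CYP11B2, CYP17A1, CYP19A1 and CYP21A2, the vitamin D hydroxylase CYP24A1, and GSTA2, GSTM5, GSTM1L and UGT1A9. CYP2C8, CYP4A11, SULT1C4 and SULT2A1 were among those on 1 array. All 5 kappa, omega, pi and zeta GST genes exceeded the floor on every array, against 1 of the 8 tested CYP genes of sterols, bile acids, vitamin D and retinoids.

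**Figure D1:**
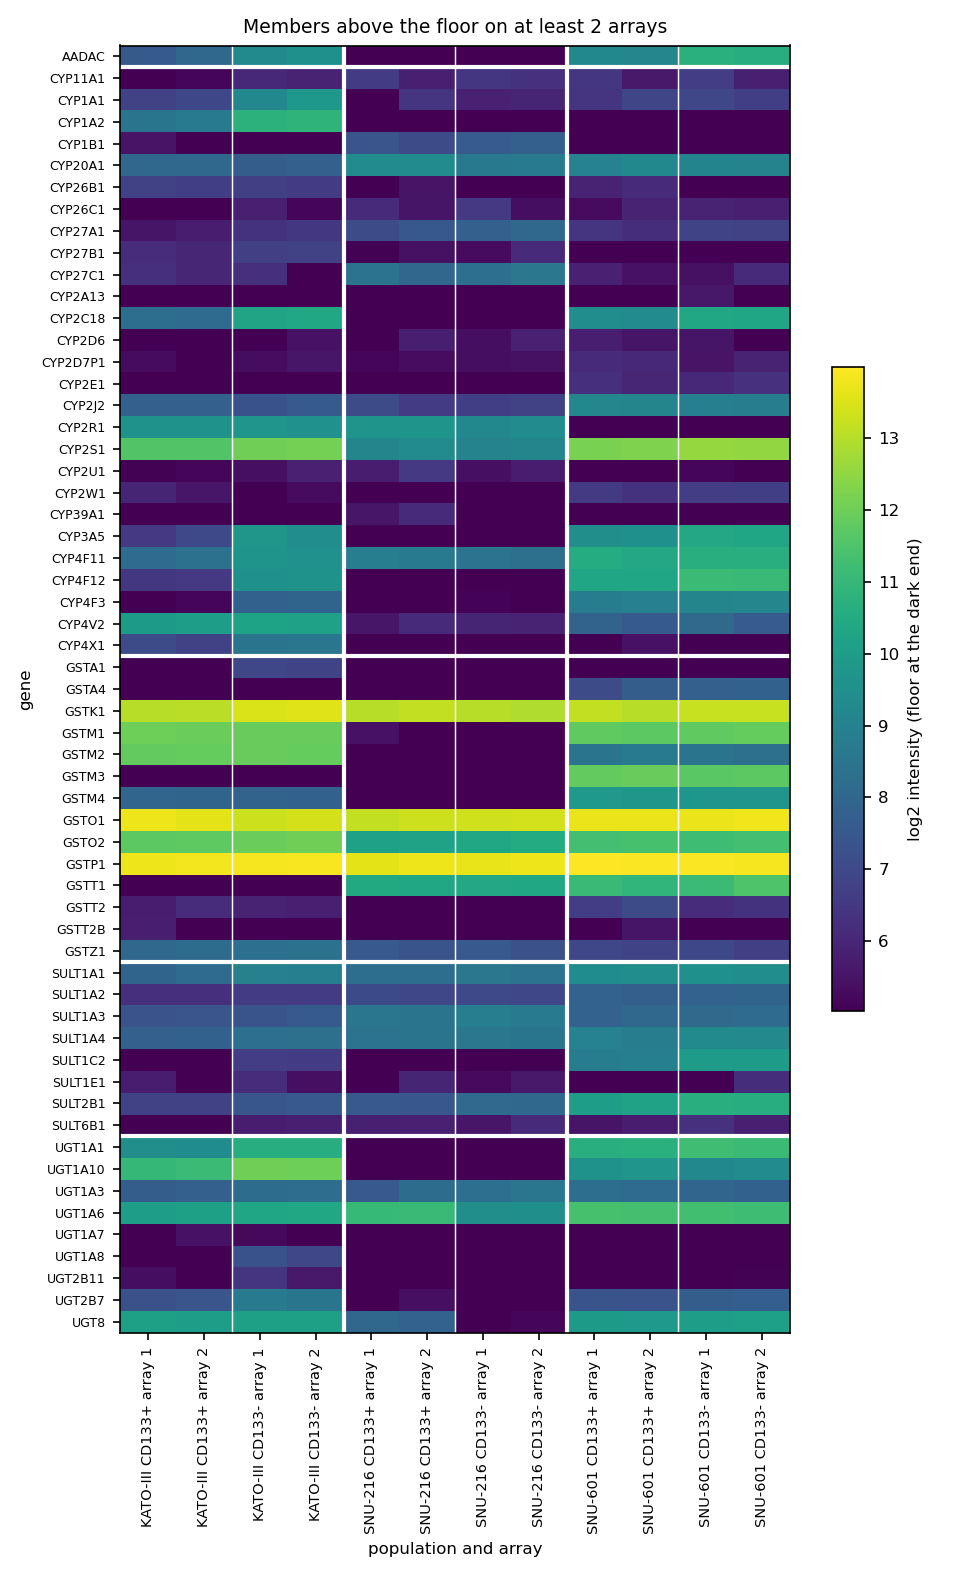
Log2 intensity of the 59 members above the floor on at least 2 arrays, 1 row per gene and 1 column per array, with white lines between families and between lines; the darkest color is the floor of 32.7 and below. Colors are to be read along a row, since probes of different genes differ in brightness. The 4 columns of SNU-216 are dark in 21 rows, among them AADAC, CYP3A5, GSTM2 and UGT1A10.

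The set of members above the floor differed between the lines. Of the 59 members tested, 18 (30.5%) exceeded the floor on all 12 arrays, against 57.9% of all genes tested. SNU-216 lacked 21 of the 59 (35.6%) on all of its 4 arrays, where 10.3% of all genes tested were absent from it. KATO-III lacked 6 (10.2%, against 8.36% of all genes) and SNU-601 lacked 7 (11.9%, against 9.94%). AADAC, CYP2C18, CYP3A5, CYP4F12, GSTM2, GSTM4, GSTT2, UGT1A1 and UGT1A10 were above the floor on all 4 arrays of both other lines and on none of SNU-216. These 9 make 15.3% of the members tested, and the pattern was met by 2.23% of all genes tested. CYP1A2, GSTA1, UGT1A7 and UGT1A8 were above the floor in KATO-III alone, CYP2E1, GSTA4 and GSTM3 in SNU-601 alone and CYP39A1 in SNU-216 alone. In sorted populations, fewer cells that express a gene and less RNA in each cell cannot be told apart.

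The 5 epithelial markers EPCAM, CDH1, KRT8, KRT18 and KRT19 exceeded the floor on each of the 12 arrays, and genes above the floor numbered 16320 to 16474 per array. CDH1, the adhesion protein E-cadherin, differed between the fractions, with a limma log2 change of -0.70 (adjusted p = 6.83e-05) in KATO-III, 0.30 (adjusted p = 0.0109) in SNU-216 and -0.25 (adjusted p = 0.0362) in SNU-601. KRT18 was lower in CD133+ cells of SNU-216, at -0.39 (adjusted p = 0.0176), opposite to CDH1 in that line. It did not pass the test in KATO-III or SNU-601, and EPCAM, KRT8 and KRT19 passed it between the fractions of no line. Of the other cell type markers, PTPRC, CD3D, PECAM1, VWF, COL3A1 and DCN were on no array and COL1A2 was on 1. COL1A1 reached at most 196, and the 4 fibroblast markers summed to no more than 178 on an array. In KATO-III COL1A1 differed between the fractions, with 51.4 and 67.1 in CD133+ and 20.6 and 27.2 in CD133- cells, a log2 change of 0.84 (adjusted p = 0.00977). Of the 3 hepatocyte markers, ALB was on all 12 arrays with 34.9 to 128. It was higher in SNU-216 than in KATO-III, by limma 0.98 (adjusted p = 0.000794). APOA1 was above the floor in KATO-III alone, from 262 to 359.7. TTR was above the floor on 5 arrays, with at most 50.2, and passed no test between fractions or lines. CD68, a lysosomal protein used as a macrophage marker, was the exception among the 3 leukocyte markers: it was on all 12 arrays and lower in CD133+ cells of each line, by limma -1.36 (adjusted p = 2.31e-05) in KATO-III, -1.13 (adjusted p = 0.00013) in SNU-216 and -0.46 (adjusted p = 0.0232) in SNU-601. The sum of the leukocyte list ran from 5.79 to 13.4 on the KATO-III CD133+ arrays and from 61.5 to 67.3 on the CD133- arrays, while PTPRC and CD3D stayed at or under 2.41. In SNU-216 it ran from 139 to 161 and from 354 to 400.1, and in SNU-601 from 1051 to 1193 and from 1507 to 1600.4. CD68 thus also differed between lines, by 2.25 (adjusted p = 7.57e-09) in SNU-216 and 4.54 (adjusted p = 1.3e-10) in SNU-601 against KATO-III. Whether cells behind the CDH1, KRT18, CD68, COL1A1, ALB and APOA1 signals have a part in the differences between fractions or lines was not tested. PROM1 itself was higher in CD133+ cells of each line, with 9513 and 8847 against 4056 and 4493 in KATO-III.

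More members differed between the fractions of KATO-III than of either other line. Lower in its CD133+ cells were AADAC, 6 of the 8 SULT genes tested, 4 of 5 CYP4 genes, 4 of 6 UGT1A genes and 5 of 13 xenobiotic CYP1, CYP2 and CYP3 genes, of which CYP2W1 was higher. Of the 59 members tested, 29 (49.2%) passed the test (limma, Benjamini-Hochberg adjusted p of 0.05 over all genes tested), where 39.3% of all genes tested did. They divided unevenly, with 26 lower in CD133+ cells (44.1%, against 20.6% of all genes tested) and 3 higher (against 18.7%). Lower by at least 1.5-fold were 20 members (33.9%, against 11% of all genes). The median log2 change was -0.32 over the members tested and 0.00 over all genes tested. GSTA1 and UGT1A8 passed the filter through the CD133- arrays of this line alone, so that for these 2 a difference was fixed by the filter.

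Among the CYP genes of KATO-III, 10 of 27 were lower and 2 higher, where 20.6% and 18.7% of all genes tested were. CYP1A1, which oxidizes polycyclic aromatic hydrocarbons and is a textbook target of AHR, read 107 and 127 on the 2 CD133+ arrays and 591 and 888 on the 2 CD133- arrays, a log2 change of -2.63 (SE 0.40, adjusted p = 0.000766). CYP1A2, its neighbor on the same chromosome and another AHR target, read 363 and 419 against 1749 and 1868, a change of -2.21 (SE 0.12, adjusted p = 2.36e-06). Neither pair of ranges overlapped, and CYP1A2 was at or under the floor on all 8 arrays of the other lines. CYP1A1 was near the floor in SNU-216, with between 22.1 and 84.0, and above it on all 4 arrays of SNU-601, with between 86.0 and 121. It did not pass the test between the fractions of either line. CYP1B1, the third gene of the family, was above the floor on 1 KATO-III array of 4.

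CYP3A5, the CYP3A enzyme known from tissues outside the liver, read 92.1 and 128 in CD133+ and 865 and 681 in CD133- cells of KATO-III, a log2 change of -2.82 (SE 0.17, adjusted p = 4.13e-06). CYP2C18, a CYP2C gene expressed in epithelia, read 310.1 and 286 against 1232 and 1363, with a change of -2.12 (SE 0.08, adjusted p = 6.96e-07). AADAC, an esterase of the endoplasmic reticulum of liver and gut cells that hydrolyzes amide and ester drugs, read 189.6 and 258 against 640.2 and 732, with a change of -1.63 (SE 0.14, adjusted p = 3.32e-05). In each of these 3 genes both CD133+ arrays were below both CD133- arrays. They were also lower in SNU-601 and under the floor in SNU-216, as were CYP4F12, SULT1C2 and UGT1A1.

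The promoter sequences of 4 of the members lower in KATO-III CD133+ cells are shown, CYP1A1 and CYP1A2 as neighboring AHR targets and CYP3A5 and AADAC as genes that were lower in SNU-601 too. Each is the 250 bases before the RefSeq transcription start on the gene's own strand, in GRCh38.p14: chr15:74725529-74725778 on the minus strand for CYP1A1, chr15:74748595-74748844 on the plus strand for CYP1A2, chr7:99679997-99680246 on the minus strand for CYP3A5 and chr3:151813866-151814115 on the plus strand for AADAC. Capitals mark letters matching one of 4 motifs searched on both strands, and CYP3A5 and AADAC held none.
CYP1A1: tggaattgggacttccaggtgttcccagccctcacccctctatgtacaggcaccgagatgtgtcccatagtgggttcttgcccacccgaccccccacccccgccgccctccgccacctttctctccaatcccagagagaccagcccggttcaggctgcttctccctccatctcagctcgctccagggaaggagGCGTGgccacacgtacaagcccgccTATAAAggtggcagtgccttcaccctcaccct
CYP1A2: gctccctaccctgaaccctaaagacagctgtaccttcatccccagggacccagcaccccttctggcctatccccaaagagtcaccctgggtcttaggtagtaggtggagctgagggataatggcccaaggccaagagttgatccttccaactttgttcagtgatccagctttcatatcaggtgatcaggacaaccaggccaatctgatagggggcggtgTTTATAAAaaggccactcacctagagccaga
CYP3A5: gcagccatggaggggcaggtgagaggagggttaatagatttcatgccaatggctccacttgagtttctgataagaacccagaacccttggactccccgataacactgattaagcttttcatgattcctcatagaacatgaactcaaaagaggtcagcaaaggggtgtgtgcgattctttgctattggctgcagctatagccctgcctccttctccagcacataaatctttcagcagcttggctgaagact
AADAC: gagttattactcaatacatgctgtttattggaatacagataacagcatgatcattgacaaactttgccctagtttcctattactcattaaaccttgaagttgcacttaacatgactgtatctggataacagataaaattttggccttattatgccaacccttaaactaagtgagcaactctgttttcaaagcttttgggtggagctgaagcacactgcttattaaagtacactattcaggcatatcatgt

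The core of the xenobiotic response element that AHR binds, GCGTG, occurred once in the CYP1A1 window, 57 to 53 bases before the start, and in 31.9% of 27305 promoter windows of the same length. TATAAA, the TATA box, lay 32 to 27 bases before the start of CYP1A1, and on each strand of CYP1A2, overlapping itself from 31 to 24 bases before the start. It occurred in 11.1% of the windows. CAAAGTCCA, a site of HNF4A, and TGACNNNGC, the core of the antioxidant response element, occurred in 0.293% and 11% of the windows and in none of the 4 shown. A match describes letters only and says nothing of binding in these cells.

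Of the CYP4 genes, fatty acid hydroxylases, CYP4F12 read 89.4 and 90.9 in CD133+ and 735 and 769.5 in CD133- cells, a change of -3.06 (SE 0.08, adjusted p = 8.32e-08). CYP4F3, which hydroxylates leukotriene B4, read 24.3 and 36.6 against 224 and 241, with a change of -2.75 (SE 0.12, adjusted p = 1.07e-06), 1 CD133+ array being at the floor. CYP4F11, of the same gene cluster, changed by -1.36 (SE 0.09, adjusted p = 8.37e-06) and CYP4X1 by -1.61 (SE 0.17, adjusted p = 8.67e-05). The remaining tested gene, CYP4V2, read 959 and 1062 against 1212 and 1144 and did not pass the test. Of the other CYP genes, CYP2S1, an enzyme of epithelia outside the liver, changed by -0.50 (SE 0.07, adjusted p = 0.000553) and CYP27A1, the mitochondrial sterol 27-hydroxylase, by -0.77 (SE 0.17, adjusted p = 0.00724). CYP20A1, whose substrate is unsettled, was higher in CD133+ cells, at 0.32 (SE 0.09, adjusted p = 0.0166), and so was CYP2W1, at 0.61 (SE 0.16, adjusted p = 0.0148). Without KATO-III CD133+ array 1 the calls of CYP27A1 (-0.66), CYP20A1 (0.31) and CYP2W1 (0.41) ended, as did that of CYP20A1 without CD133+ array 2 (0.33) and those of CYP20A1 (0.26) and CYP2W1 (0.47) without CD133- array 1. CYP27A1 and CYP2W1 stayed under 100 on all 4 arrays of the line, and with a floor of 100 neither had a difference to test.

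**Figure D2:**
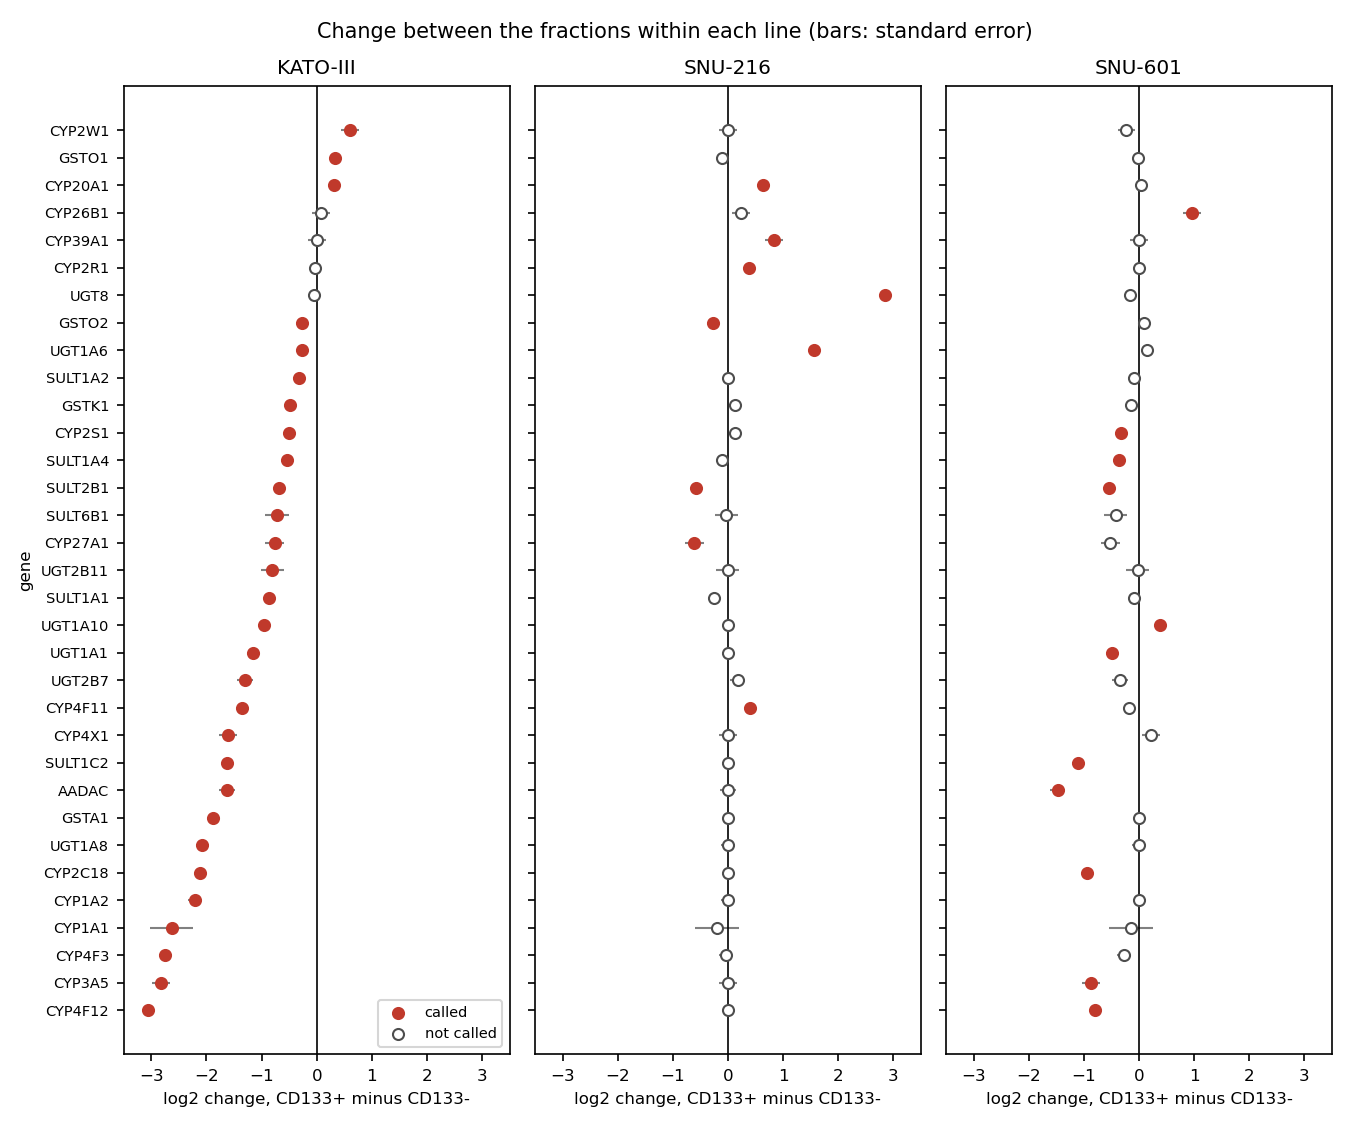
Log2 change of CD133+ minus CD133- intensity in each line for the 33 members that passed the test in at least 1 line, sorted by the change in KATO-III; points are estimates from 2 arrays a fraction, bars are standard errors, and filled points passed an adjusted p of 0.05 (limma). In KATO-III 26 of the filled points lie left of 0, in SNU-216 3 and in SNU-601 9.

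Of the 9 UGT genes tested, 6 were lower in CD133+ cells of KATO-III and none was higher (20.6% and 18.7% of all genes tested). UGT1A1, the bilirubin glucuronosyltransferase, read 704 and 676 against 1547 and 1547, a log2 change of -1.16 (SE 0.06, adjusted p = 2.53e-06). UGT1A10, known from the gut, read 2027 and 2237 against 4199 and 4110.4, a change of -0.96 (SE 0.07, adjusted p = 1.55e-05). UGT1A8, another gut enzyme, was at or under the floor in CD133+ cells and read 154 and 123 in CD133- cells, at least 4.21-fold higher. The filter admitted UGT1A8 through these CD133- arrays alone, which fixed a difference. UGT1A6, which conjugates simple phenols, changed less, with 1058 and 1118 against 1271 and 1349.8 and a change of -0.27 (SE 0.05, adjusted p = 0.00234). UGT2B7, which glucuronidates morphine and steroids, changed by -1.30 (SE 0.14, adjusted p = 0.000122). The UGT1A genes share all exons but the first, so probes in the shared part cannot separate them, and the probe positions were not used here. The same holds for the near-identical pairs SULT1A3 and SULT1A4, GSTT2 and GSTT2B, and CYP2D6 and CYP2D7P1, and for the CYP4F and GSTM genes, whose signals may be shared.

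All 6 SULT genes called in KATO-III were lower in CD133+ cells, out of 8 tested, where 20.6% of all genes tested were lower. SULT1A1, the main phenol sulfotransferase, read 239 and 289.7 against 484 and 474, a log2 change of -0.87 (SE 0.10, adjusted p = 0.000135). SULT2B1, which sulfates cholesterol, read 112 and 109.7 against 172 and 187, a change of -0.69 (SE 0.09, adjusted p = 0.000271). SULT1C2 was at or under the floor in CD133+ cells and read 102 and 99.2 in CD133- cells, at least 3.08-fold higher (adjusted p = 6.73e-06), a difference that a floor of 100 removed. Of 14 GST genes, 3 were lower and 1 higher, where 20.6% and 18.7% of all genes tested were. GSTA1, an alpha class enzyme of liver and gut, was at or under the floor in CD133+ cells. It read 123 and 118 in CD133- cells, at least 3.68-fold higher. These 2 arrays alone admitted GSTA1 to the test, which fixed a difference. GSTK1, the mitochondrial and peroxisomal class, changed by -0.49 (SE 0.07, adjusted p = 0.000433). The omega class genes, which reduce dehydroascorbate, went opposite ways: GSTO1 read 13928 and 12527 against 10179.8 and 10929, a change of 0.32 (SE 0.07, adjusted p = 0.00451), and GSTO2 changed by -0.27 (SE 0.06, adjusted p = 0.00921). The call of GSTO2 ended without KATO-III CD133+ array 1 (-0.25) or CD133- array 2 (-0.23).

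SNU-601 CD133+ cells had a shorter list of lower members, all of which were also lower in KATO-III. Of 59 tested, 11 (18.6%) passed the test, where 16.4% of all genes tested did, with 9 lower in CD133+ cells (7.78% of all genes) and 2 higher (8.59%). AADAC read 588 and 577 in CD133+ and 1681 and 1566 in CD133- cells, a log2 change of -1.48 (SE 0.14, adjusted p = 0.000421). SULT1C2 read 445 and 476 against 984 and 1002, a change of -1.11 (SE 0.10, adjusted p = 0.000419). CYP2C18 read 687 and 659 against 1305 and 1269, a change of -0.94 (SE 0.08, adjusted p = 0.000357). In these 3 genes, again, no CD133+ array reached a CD133- array.

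CYP3A5 in SNU-601 read 705 and 729.8 against 1389.6 and 1250.4, with a log2 change of -0.88 (SE 0.17, adjusted p = 0.00801), and CYP4F12 read 1292 and 1252 against 2268 and 2165, with -0.80 (SE 0.08, adjusted p = 0.000448). SULT2B1 changed by -0.54 (SE 0.09, adjusted p = 0.00403), UGT1A1 by -0.49 (SE 0.06, adjusted p = 0.00138), SULT1A4 by -0.37 (SE 0.07, adjusted p = 0.00982) and CYP2S1 by -0.33 (SE 0.07, adjusted p = 0.0144). UGT1A10 went the other way than in KATO-III, with 794 and 829.8 against 599 and 646 and a change of 0.38 (SE 0.07, adjusted p = 0.00806). CYP26B1, which hydroxylates retinoic acid, was above the floor in the CD133+ cells only, at 59.6 and 68.3, at least 1.95-fold higher than in CD133- cells (adjusted p = 0.00489), and had no difference with a floor of 100. Without SNU-601 CD133+ array 1 the members higher numbered 4. The calls of CYP2S1 (-0.32), SULT1A4 (-0.35) and CYP3A5 (-0.80) ended without CD133- array 1, that of SULT1A4 without CD133+ array 2 (-0.30), and that of CYP2S1 without CD133+ array 1 (-0.30) or CD133- array 2 (-0.34).

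The 9 members lower in SNU-601 made 34.6% of the 26 lower in KATO-III and 100% of their own list. Over all genes tested, the genes lower in both lines made 14.8% of the KATO-III list and 39.2% of the SNU-601 list. The log2 changes of these 2 comparisons share no arrays. Their calls are not independent, since both use the same spread for a gene, estimated from the arrays of all lines together. A gene with a small shared spread passes more easily in both lines.

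**Figure D3:**
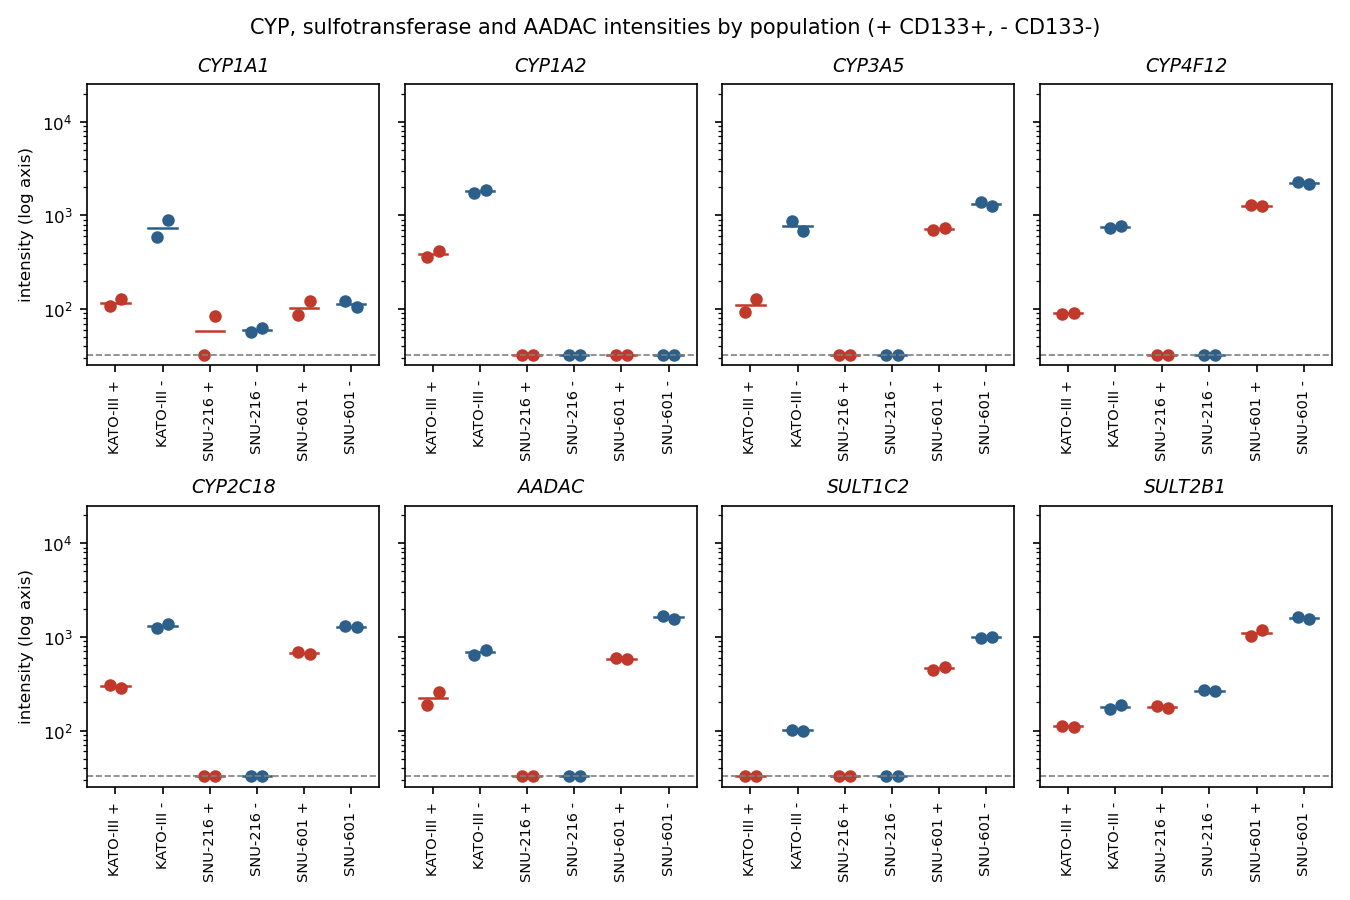
Intensity (log axis) of 8 CYP, SULT and AADAC genes on the 2 arrays of each population; points are arrays with values under the floor drawn at the floor (dashed line), bars are means of the drawn values, red is CD133+ and blue CD133-. CYP3A5, CYP4F12, CYP2C18, AADAC and SULT1C2 are lower in CD133+ cells of KATO-III and SNU-601 and at the floor in SNU-216, while SULT2B1 is lower in CD133+ cells of all 3 lines.

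In SNU-216 the test was passed by 9 of 59 members (15.3%, against 28.6% of all genes tested). The 21 members (35.6%, against 10.3% of all genes tested) that were under the floor on all 4 arrays of the line could not pass it. With 6 higher (14.6% of all genes) and 3 lower (14%), the direction was the reverse of KATO-III in 2 genes called in both, UGT1A6 and CYP4F11. UGT8, which transfers galactose to ceramide in the synthesis of myelin lipids, read 262 and 230.3 in CD133+ and 12.7 and 35.2 in CD133- cells, a log2 change of 2.86 (SE 0.08, adjusted p = 2.58e-07). Of the CD133- arrays, 1 was under the floor and the other just above it, so the size depends on the floor, and the log2 change ran from 1.30 to 3.37 over the alternatives. UGT1A6 read 2099 and 2146 against 702 and 726, a change of 1.57 (SE 0.05, adjusted p = 3.36e-07). CYP39A1, an oxysterol hydroxylase, read 48.0 and 71.0 in CD133+ cells, at least 1.79-fold higher than in CD133- cells, where it was under the floor. It passed the filter through the 2 CD133+ arrays alone, which fixed a difference.

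Smaller rises in SNU-216 were those of CYP20A1, at 0.63 (SE 0.09, adjusted p = 0.00075), CYP4F11, at 0.39 (SE 0.09, adjusted p = 0.0114), and CYP2R1, the vitamin D 25-hydroxylase, at 0.38 (SE 0.09, adjusted p = 0.0137). The 3 lower members were CYP27A1, at -0.61 (SE 0.17, adjusted p = 0.0282), SULT2B1, at -0.57 (SE 0.09, adjusted p = 0.00127), and GSTO2, at -0.28 (SE 0.06, adjusted p = 0.0104), and all of them were lower in KATO-III too. Without SNU-216 CD133+ array 1 the lower members numbered 1, as without CD133- array 2, and without either KATO-III CD133+ array, which enters only through the shared spread, they numbered 5. Leaving out SNU-216 CD133+ array 1 ended the calls of CYP27A1 (-0.40), CYP2R1 (0.37), CYP4F11 (0.30) and GSTO2 (-0.26), and leaving out CD133- array 2 those of CYP27A1 (-0.49), CYP4F11 (0.35) and GSTO2 (-0.20). The call of CYP2R1 also ended without CD133+ array 2 (0.39) or CD133- array 1 (0.31).

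**Figure D4:**
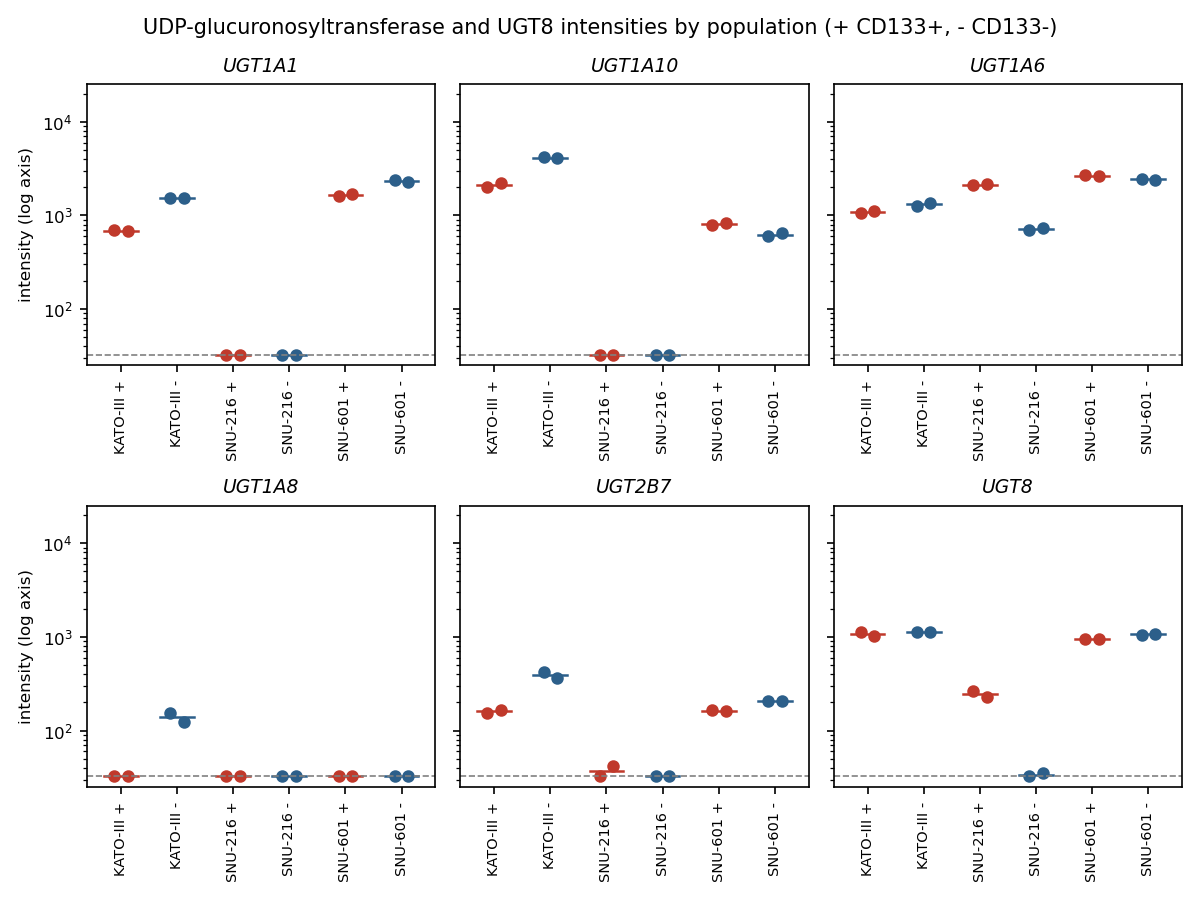
Intensity (log axis) of 6 UGT genes on the 2 arrays of each population, drawn as points with means as bars; red is CD133+, blue is CD133-, and values under the floor (dashed line) are drawn at it. UGT8 and UGT1A6 are higher in CD133+ cells of SNU-216, and UGT1A1 and UGT1A10 are at the floor on the 4 arrays of that line.

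Over all lines, with the line as a block, 4 members (6.78%) passed the test, where 4.73% of all genes tested did. All 4 were lower in CD133+ cells (2.11% of all genes) and none was higher (2.62%). At an unadjusted p under 0.05 stood 23 members (39%, against 24.5% of all genes), 20 of them lower and 3 higher. SULT2B1 was lower in every line, with a log2 change of -0.60 (SE 0.08, adjusted p = 0.00633). CYP27A1 changed by -0.63 (SE 0.12, adjusted p = 0.018), AADAC by -1.04 (SE 0.24, adjusted p = 0.0353) and SULT1C2 by -0.91 (SE 0.22, adjusted p = 0.0401). AADAC and SULT1C2 were at or under the floor on all SNU-216 arrays, so their change over all lines came from KATO-III and SNU-601. With the 2 arrays of a population averaged first, or the population as a random block, none of the 4 passed the test. Leaving out KATO-III CD133+ array 1 left 1 call, and leaving out any other array of KATO-III or any array of SNU-601 left 2. SULT2B1 kept its call without each array in turn.

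The change between the fractions differed between lines in 29 of the 59 members (49.2%, against 44.4% of all genes tested), by the F-test of the interaction of line and fraction. The 21 members under the floor on all SNU-216 arrays (35.6%, against 10.3% of all genes tested), CYP4F12 among them, entered with a change of 0 there. For GSTA1, UGT1A8 and CYP39A1 a difference was fixed by the filter. The smallest adjusted p-values among the members were those of UGT8 (1.58e-06), CYP4F12 (1.82e-06) and UGT1A6 (1.97e-06). For SULT2B1 the interaction had an adjusted p of 0.564 and for CYP27A1 of 0.711, which leaves a difference between lines undetected rather than absent.

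Between lines, the median size of the log2 change over the 59 members was 0.83 for SNU-216 against KATO-III, 0.98 for SNU-601 against KATO-III and 0.97 for SNU-601 against SNU-216, where all genes tested had 0.44, 0.38 and 0.37. Between the fractions it was 0.47 in KATO-III, 0.08 in SNU-216, with 21 members at the floor throughout, and 0.19 in SNU-601, where all genes tested had 0.29, 0.23 and 0.18. Members passed the test in 44 of 59 genes (74.6%) between SNU-216 and KATO-III, in 43 (72.9%) between SNU-601 and KATO-III and in 44 (74.6%) between SNU-601 and SNU-216, where 62%, 58.6% and 56.5% of all genes tested did. By count, SNU-216 was the low line: it was lower than KATO-III in 32 members and higher in 12 (30.3% and 31.7% of all genes), and SNU-601 was higher than SNU-216 in 35 and lower in 9 (27.1% and 29.4%). Some groups went the other way. Of 8 SULT genes, 5 were higher in SNU-216 than in KATO-III and 1 lower, but against SNU-601 1 was higher and 5 lower. Of 8 CYP genes of sterols, bile acids, vitamin D and retinoids, 4 were higher and 2 lower than in KATO-III. Against SNU-601, 5 of these 8 were higher in SNU-216 and 1 lower. SNU-601 was higher than KATO-III in 28 members and lower in 15 (29.9% and 28.7%). The 3 comparisons share arrays, since each line enters 2 of them.

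The mu class GST genes, which lie side by side in 1 gene cluster, differed between lines. GSTM1 ran from 3819 to 4084 in KATO-III and from 3409.9 to 3702 in SNU-601, and in SNU-216 it was above the floor on 1 CD133+ array, at 44.3, and under it on the other 3. GSTM2 ran from 3686 to 3830.2 in KATO-III and from 325 to 435 in SNU-601 and was under the floor on all 4 arrays of SNU-216, at least 115-fold below KATO-III (adjusted p = 1.71e-12). GSTM4 ran from 224 to 248 in KATO-III and 839 to 945 in SNU-601 and was likewise under the floor in SNU-216.

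GSTM3 had another pattern, with 3638 and 3868 in CD133+ and 3338 and 3382 in CD133- cells of SNU-601 and no array above the floor in the other lines, at least 109-fold below SNU-601. It passed the filter through SNU-601 alone, so that a difference between lines was fixed by the filter, as for GSTA4. GSTT1, of the theta class, was missing from another line: all 4 KATO-III arrays were under the floor, while SNU-216 ran from 1312 to 1421 and SNU-601 from 1942 to 2957, at least 41.8-fold and 70.3-fold higher (adjusted p = 3.4e-11 and 3.47e-11). GSTA4, which conjugates the lipid peroxidation product 4-hydroxynonenal, was above the floor in SNU-601 alone, from 136 to 227. In the main setting, none of GSTM1, GSTM2, GSTM3, GSTM4, GSTT1 and GSTA4 passed the test between the fractions of any line. Under some alternative settings GSTM1 passed it in SNU-216, GSTM2 in SNU-601 and GSTT1 in KATO-III and SNU-601. Alternatives for GSTM4 and GSTA4 are not given here. GSTP1, the pi class enzyme of epithelial tumors, was far above the floor on every array. It ran from 13936 to 15255 in KATO-III, 12608 to 14012 in SNU-216 and 14781 to 16243 in SNU-601. The KATO-III range overlaps both others, while those of SNU-216 and SNU-601 do not overlap. GSTP1 passed the test as lower in SNU-216 than in either other line, the largest log2 difference between line means being 0.22. The call against KATO-III ended with no variance trend (-0.13).

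**Figure D5:**
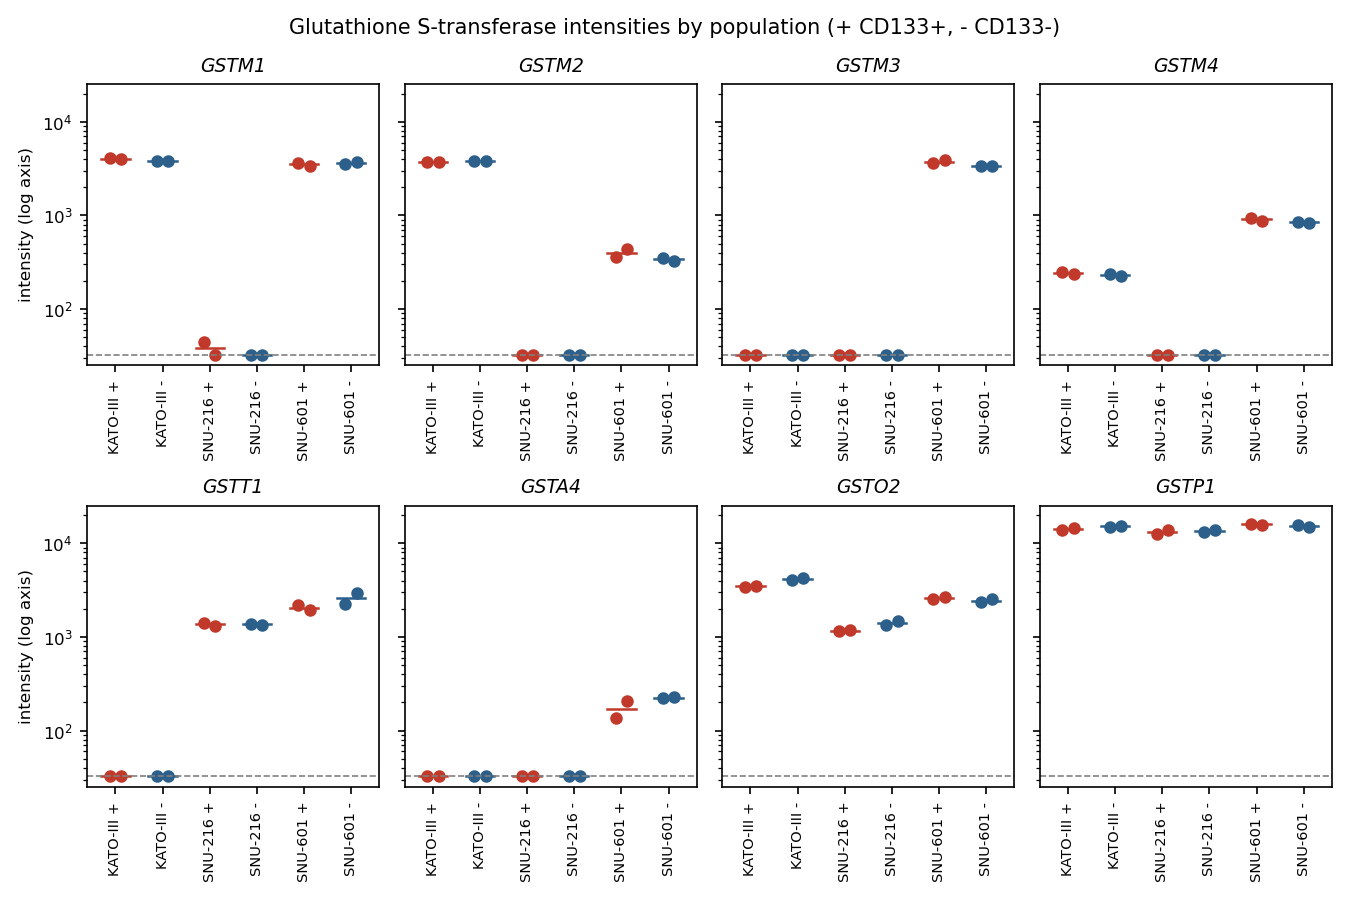
Intensity (log axis) of 8 GST genes on the 2 arrays of each population; points are arrays with values under the floor drawn at it (dashed line), bars are means, red is CD133+ and blue CD133-. GSTM1, GSTM2 and GSTM4 are at or near the floor in SNU-216, GSTM3 is above it in SNU-601 alone, and GSTT1 is under it in KATO-III alone.

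Of the UGT genes, UGT1A10 ran from 2027 to 4199 in KATO-III and from 599 to 829.8 in SNU-601, with a log2 change of -2.07 (SE 0.05, adjusted p = 1.36e-09) of SNU-601 against KATO-III. In SNU-216 it was under the floor on all 4 arrays, at least 91.0-fold below KATO-III (adjusted p = 5.06e-13). UGT1A1 ran from 676 to 1547 in KATO-III and 1625 to 2402 in SNU-601 and was under the floor in SNU-216, at least 31.6-fold and 60.1-fold lower (adjusted p = 9.93e-13 and 3.43e-13). UGT1A6 was nonetheless on every SNU-216 array, from 702 to 2146. UGT8 ran from 1035 to 1125 in KATO-III and 949 to 1084 in SNU-601, and its SNU-216 values given above were all lower.

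Among the CYP genes, CYP1A2 was at least 25.7-fold higher in KATO-III than in either other line, but it passed the filter through KATO-III alone, which fixed a difference. CYP2R1 was the counterpart in SNU-601, where all 4 arrays were under the floor, against 749.7 to 858 in KATO-III and 594 to 814 in SNU-216, at least 24.2-fold and 21.7-fold lower (adjusted p = 3.67e-11 and 1.97e-11). CYP1B1, which hydroxylates estradiol, was above the floor on all 4 arrays of SNU-216, from 139 to 218, and on none of SNU-601, at least 5.42-fold lower (adjusted p = 1.02e-07). CYP27C1, a retinoid desaturase, also led in SNU-216, from 253 to 380.4, with a log2 change of 2.42 (SE 0.28, adjusted p = 4.33e-05) against KATO-III and of -2.61 (SE 0.28, adjusted p = 2.55e-05) for SNU-601 against SNU-216.

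CYP4F12 and CYP3A5 had their highest line averages in SNU-601, where CYP4F12 differed from KATO-III by 2.69 (SE 0.06, adjusted p = 3.98e-10) and from SNU-216 by at least 51.4-fold, and CYP3A5 from SNU-216 by at least 29.7-fold. CYP4V2, a fatty acid hydroxylase mutated in a corneoretinal dystrophy, ran from 959 to 1212 in KATO-III, 188 to 279 in SNU-601 and 47.4 to 70.6 in SNU-216. CYP2S1 ran from 4696 to 6109 in SNU-601, 3032 to 4401 in KATO-III and 528 to 649 in SNU-216, with no overlap of the lines. CYP2J2, an epoxygenase of arachidonic acid, ran from 455 to 575 in SNU-601, 157 to 221 in KATO-III and 97.2 to 134 in SNU-216. SULT2B1 was likewise highest in SNU-601, at 3.24 (SE 0.06, adjusted p = 2.43e-10) against KATO-III, and SULT1C2 differed by at least 20.7-fold between SNU-601 and SNU-216. AADAC was at least 29.7-fold lower in SNU-216 than in SNU-601 and at least 11.9-fold lower than in KATO-III.

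A list of 30 partner genes covers the regulators, electron donors, cosubstrate suppliers, membrane-bound GST genes and epoxide hydrolases around these enzymes, and 28 of them were tested. In KATO-III 7 were higher in CD133+ cells and 7 lower (18.7% and 20.6% of all genes tested), in SNU-216 12 and 5 (14.6% and 14%), in SNU-601 2 and 4 (8.59% and 7.78%), and over all lines 1 and 2 (2.62% and 2.11%). AHR was lower over all lines at -0.30 (adjusted p = 0.0338). So was POR, the reductase that passes electrons to microsomal CYP enzymes, at -0.44 (adjusted p = 0.0229). The glutathione reductase GSR was higher at 0.42 (adjusted p = 0.0334). Within lines, AHR (-0.19) and GSR (0.11) did not pass the test in SNU-601, nor POR (-0.28) in KATO-III. Partner calls with the arrays of a population averaged first, or with a random block, are not given here. No member called over all lines passed in those settings.

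In KATO-III, NR1I2 read 22.6 and 46.8 in CD133+ and 96.3 and 112 in CD133- cells, a log2 change of -1.41 (adjusted p = 0.00116). HNF4A was higher in the CD133+ cells of KATO-III, with 76.9 and 93.3 against 60.8 and 55.3 and a change of 0.55 (adjusted p = 0.00637), and was under the floor in both other lines. RXRA, the partner of the NR1I2 receptor, changed by -0.57 (adjusted p = 0.000126) in KATO-III and by 0.63 (adjusted p = 0.000131) in SNU-216. NFE2L2 went up in CD133+ cells of KATO-III by 1.04 (adjusted p = 7.63e-06), and GCLC, which makes the glutathione precursor, by 0.65 (adjusted p = 0.00169). In SNU-216 NFE2L2 went up by 0.47 (adjusted p = 0.00112), while GCLC did not pass the test (0.12). Neither passed it in SNU-601 (0.03 and -0.10). GCLM, another cosubstrate supplier, changed by 0.38 (adjusted p = 0.00283) in KATO-III, -0.24 (adjusted p = 0.0356) in SNU-216 and 0.28 (adjusted p = 0.0319) in SNU-601. PAPSS2, which makes the sulfate donor of the SULT enzymes, changed by -1.15 (adjusted p = 0.00393) in KATO-III and 2.67 (adjusted p = 7.05e-05) in SNU-216. In SNU-601 it changed by 0.88 (adjusted p = 0.0327), with CD133- arrays near or under the floor at 14.9 and 36.8. EPHX2, the soluble epoxide hydrolase, changed by -0.95 (adjusted p = 0.00035) in KATO-III. AHR ran in SNU-216 from 1005 to 1514, against 3851 to 5137 in KATO-III and 3898 to 4683 in SNU-601.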

How the data were processed

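The authors hybridized RNA of CD133+ and CD133- cells from 3 gastric cancer lines on 12 Illumina BeadChips, 2 per population, and per the labels processed them in BeadStudio. The deposited values are intensities on a linear scale, quantile-normalized per the methods, 1 row per gene symbol. Of them 32.1% are at or below 0, and how probes were combined is not given in the sources used here. Of 34688 rows, 93 hold no value. The deposited design text names SNU201 where the array labels have SNU-216, and the labels were followed.

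Values under the floor of 32.7 were set to it before taking log2, and the 20147 genes exceeding it on 2 or more arrays were fitted with limma 3.58.1 in R 4.3.3, with a variance trend and Benjamini-Hochberg adjustment at 0.05. Within-line, between-line and interaction contrasts came from a model with 1 mean per population (6 residual degrees of freedom), and the comparison over all lines from line plus fraction (8 degrees). All fold changes are on this floored scale. A group under the floor on every array gives a bound, written as at least N-fold. Precision is limited by having 12 arrays.

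Of the 114 symbols, 110 matched current RefSeq names and 4 older ones. The members, gene lists and tests were chosen with earlier results of these data known. Named were up to 5 called members per comparison and direction with the largest change, the 3 brightest of each family, the 10 that differed most between lines and 11 chosen by name. GSTA1, GSTA4, GSTM4, UGT1A8 and UGT2B7 were added after their values were seen. Promoter windows are RefSeq, GRCh38.p14. The fits were tested on simulated data. Alternatives covered the floor, an offset, filters, normalization, variance settings, the replicate number as a block and each array left out. Python 3.11.15 (pandas 2.3.3, numpy 2.4.6, matplotlib 3.10.9) made the summaries.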

Additional observations from a re-analysis of the deposited data

Results flagged for a closer look

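For 25 of the members named by rule, the change between CD133+ and CD133- cells differed between the lines by limma's F-test of the interaction, and the values in parentheses are its adjusted p. In UGT8 (1.58e-06) the log2 changes in KATO-III, SNU-216 and SNU-601 were -0.05, 2.86 and -0.17, the SNU-216 value depending on the floor. In UGT1A6 (1.97e-06) they were -0.27, 1.57 and 0.14, and in CYP4F11 (4.3e-05) -1.36, 0.39 and -0.18, in both genes with opposite signs in KATO-III and SNU-216. UGT1A10 (4.7e-05) had -0.96, 0.00 and 0.38, with opposite signs in KATO-III and SNU-601. AADAC (0.000387), CYP2C18 (1.37e-05), CYP3A5 (7.59e-05), CYP4F12 (1.82e-06), SULT1C2 (0.000125) and UGT1A1 (5.44e-05) were lower in CD133+ cells of KATO-III and SNU-601 and at or under the floor in SNU-216, where no change could be measured. CYP2S1 (0.0023) and SULT1A4 (0.0228) were lower in KATO-III and SNU-601 and did not pass the test in SNU-216, where both were above the floor. The change passed the test in KATO-III alone in CYP1A1 (0.00853), CYP1A2 (2.65e-05), CYP2W1 (0.0329), CYP4F3 (1.37e-05), CYP4X1 (0.000523), GSTK1 (0.00217), GSTO1 (0.0104) and SULT1A1 (0.00348), among which CYP1A2 was above the floor in no other line and CYP2W1 and CYP4X1 were not above it in SNU-216. It passed in SNU-216 alone in CYP2R1 (0.0469), which was under the floor on all SNU-601 arrays, and in CYP39A1 (0.0217), which passed the filter through the SNU-216 CD133+ arrays alone, so that its difference was fixed, and in SNU-601 alone in CYP26B1 (0.0237). It passed with 1 sign in both KATO-III and SNU-216 in CYP20A1 (0.0112) and GSTO2 (0.0129). The other 4 members past the interaction test were UGT2B7 (0.00108), UGT1A3 (0.0388), GSTA1 (2.03e-05) and UGT1A8 (4.49e-05), the last 2 admitted by the KATO-III CD133- arrays alone. CD68 moved with the fractions in each line, and its part in these differences was not tested.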

How the results depend on the processing

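Counts of members called moved by over 1.5 times in these cases, and no called change of a named member turned its sign. Over all lines, the 4 lower members became 9 with an offset of 100 and no floor, 2 without a filter on dim genes, 0 with the arrays of a population averaged first (4 at an unadjusted p under 0.05) and 0 with a random block for the population (11 unadjusted). With only genes above the floor on all 12 arrays, 18 members were tested, and fewer tested genes account for the counts: 10 lower in KATO-III, 3 higher in SNU-216, 0 higher and 3 lower in SNU-601, 6 higher and 9 lower in SNU-216 against KATO-III, 12 and 3 in SNU-601 against KATO-III, 13 and 3 in SNU-601 against SNU-216, and 10 for the interaction. The lower members of SNU-216 numbered 6 with a floor of 100 and 5 with the offset, and the higher members of SNU-601 numbered 1 with a floor of 100 and 4 with arrays centred on their medians. Apart from the filter, the cause was not tested.

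Replicate numbers are shared between populations by label only. Correlations of the replicate differences between populations ran from -0.0116 to 0.0276, so the numbers did not pair the arrays. With the replicate block, the 4 members lower over all lines became 2, and no other count moved by over 1.5 times.

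Leaving out each array in turn gave 0 to 0 members higher and 1 to 4 lower over all lines, 2 to 4 higher and 22 to 27 lower in KATO-III, 5 to 6 higher and 1 to 5 lower in SNU-216, and 2 to 4 higher and 7 to 9 lower in SNU-601. Between lines it gave 10 to 13 higher and 31 to 34 lower in SNU-216 against KATO-III, 27 to 30 and 15 to 16 in SNU-601 against KATO-III, and 32 to 35 and 8 to 10 in SNU-601 against SNU-216, with 25 to 29 for the interaction. An array left alone in its population was assumed to vary like the others. Low intensities limit the rest: 55 of the 114 members were above the floor on fewer than 2 arrays.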
